A study of Mus musculus with 16 samples.

Results

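The genes described here are 10 enzymes that make or break down leukotrienes and prostaglandins: Alox5, Alox5ap, Ltc4s, Lta4h, Ptgs1, Ptgs2, Ptges, Hpgd, Hpgds and Tbxas1. They were chosen by name from the pathway. They are 10 of the 47643 gene identifiers in the count tables, of which 20730 had any count in the 16 libraries. The study profiled RNA from wild type C57BL/6 mice, whose age is not given in the sources used here. Alveolar macrophages grown from pooled lavage, called pool cultures here, gave 4 libraries: pool 1 was sampled at passage 8 and passage 13, pool 2 at passage 5 and passage 10. Alveolar macrophages cultured from single mice, named mexAM, were compared with cells washed from the airways (bronchoalveolar lavage, BALF), cells washed from the peritoneum (peritoneal lavage, PLF) and macrophages grown from bone marrow (BMDM). Mice 1, 2 and 4 each gave 1 library of all 4 kinds. How many mice made up a pool, the passage of the mexAM cultures and the media were details not given in the sources used here. No sorting of the lavage cells is recorded, so BALF and PLF may hold several cell types, and in such bulk samples fewer cells of a type and less RNA per cell cannot be told apart. The labels say that mouse numbers are separate animals; they do not say how else the libraries of a group differ, so the spread between them may be partly technical.

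Both families of lipid mediators start from arachidonic acid that phospholipases release from membranes. For leukotrienes, the lipoxygenase Alox5 works with its membrane partner Alox5ap to form an unstable epoxide, which Lta4h turns into leukotriene B, a neutrophil attractant, or Ltc4s joins to glutathione to give the cysteinyl leukotrienes, which constrict airways. For prostanoids, the cyclooxygenases Ptgs1 and Ptgs2 make a common precursor that Ptges turns into prostaglandin E, Hpgds into prostaglandin D and Tbxas1 into thromboxane, while Hpgd inactivates prostaglandins. Alveolar macrophages, the resident phagocytes of the air space, are a known source of leukotrienes and thromboxane, and resident peritoneal macrophages a known source of prostaglandins.

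Libraries held 827791 to 2884679 counts in genes, so 1 count stood for 0.347 to 1.21 CPM. CPM, a gene's counts scaled to its library's total in genes, is the unit of every level below unless another scaling is named. The reads come from the 3' ends of transcripts, so a CPM is not divided by gene length, and levels are compared between groups and not between genes unless a ratio is named as such. Marker genes were read first. A list of 12 alveolar macrophage genes summed to 10268 to 13524 CPM in mexAM and 11254 to 15258 CPM in BALF, against 350 to 437 CPM in PLF and 966 to 1185 CPM in BMDM. A list of 10 peritoneal macrophage genes summed to 9196 to 14833 CPM in PLF. Markers of other cells were present too. In PLF, 11 mast cell genes summed to 2072 to 2274 CPM and 10 B cell genes to 3183 to 3652 CPM, while in BMDM 9 neutrophil genes summed to 2182 to 5785 CPM. PLF of mouse 1 stood apart from PLF of mice 2 and 4. The chi-square over genes with at least 10 counts in the pair, divided by its degrees of freedom, was 19.9 and 23.1 against them. It was 2.43 between mice 2 and 4. The single transcript Gm42418 was at 133467 CPM in PLF of mouse 1, against 40800 and 38115 CPM in PLF of mice 2 and 4. Its part in the chi-square was not tested.

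Alox5 and Ltc4s, which begin leukotriene synthesis and make the cysteinyl form, had their highest mean in mexAM and their lowest in BMDM. Ptgs2 and Ptges were high in PLF and low in every other group, and Hpgd and Hpgds were high in BMDM. Alox5ap, Lta4h and Tbxas1 were present in all libraries and their group means spanned less than 2 on the log2 scale. Together the 10 genes summed to 1142 to 1912 CPM per library, and Alox5ap alone made up 46.8% to 81.1% of their counts.

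**Figure D1:**
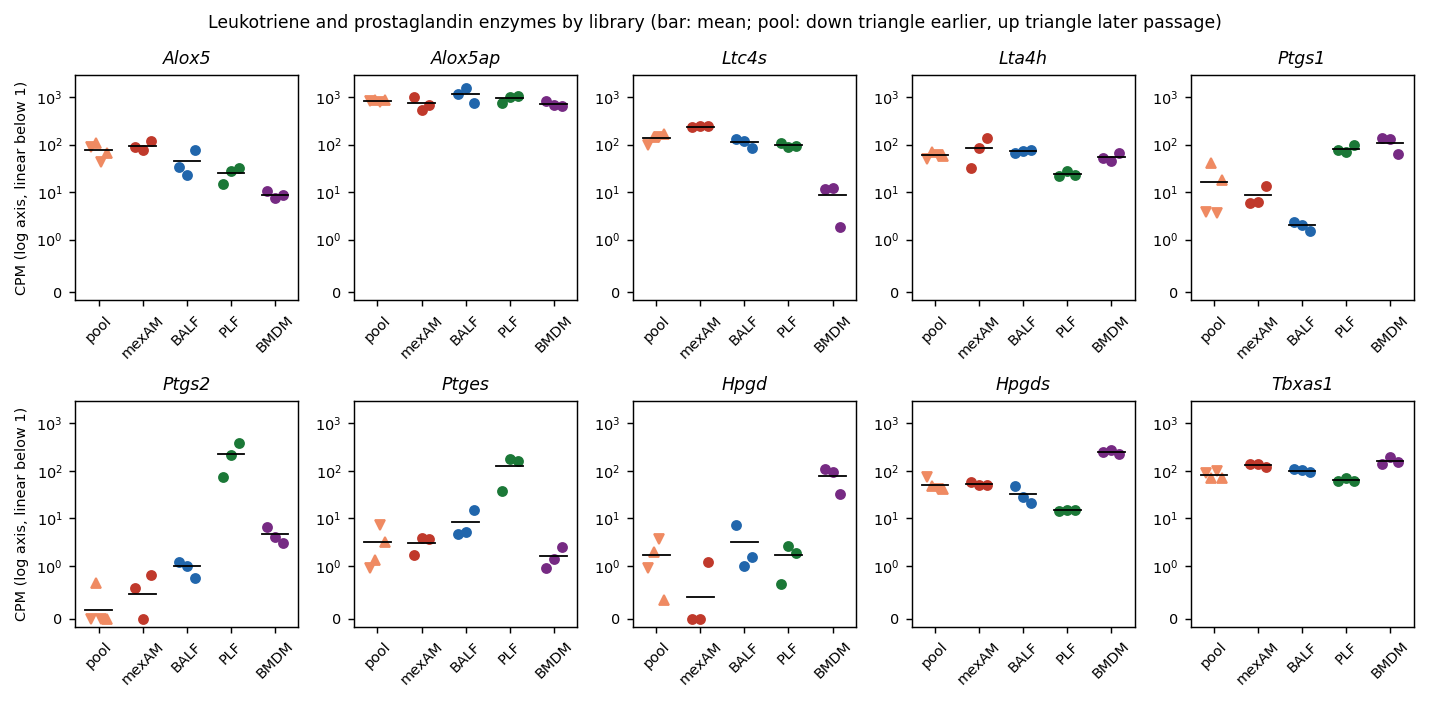
CPM of each of the 10 enzymes in every library (log axis, linear below 1) for pool cultures, mexAM, BALF, PLF and BMDM, with a bar at the mean of the libraries drawn. Ptgs2 and Ptges stand above the other groups in PLF, Hpgd and Hpgds in BMDM, and Ltc4s is at 1.84 to 12.3 CPM in BMDM and above 80 CPM elsewhere.

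Alox5, the lipoxygenase that begins leukotriene synthesis (ENSMUSG00000025701, chr6:116410077-116461178, minus strand, GRCm38), had 89.4, 76.4 and 119.9 CPM in mexAM of mice 1, 2 and 4, and 34.2, 23.3 and 77.2 CPM in BALF. PLF held 14.9, 27.6 and 32.7 CPM, and BMDM held 10.6, 7.54 and 8.58 CPM. mexAM lay above all PLF and BMDM libraries and overlapped BALF, where mouse 4 was high. In the edgeR quasi-likelihood fit of all 12 libraries, with Benjamini-Hochberg adjustment over 10011 genes, Alox5 was higher in mexAM than in BMDM by a log2 fold change of 3.47 ± 0.40 (SE; adjusted p = 2.92e-06), and higher than in PLF by 1.97 ± 0.36 (adjusted p = 2.18e-04). Between mexAM and BALF the log2 fold change of 0.85 ± 0.34 did not pass the threshold of 0.05 (adjusted p = 0.0695). It passed with mouse as a block (0.94, adjusted p = 0.0190), under scaling by library totals alone (1.07, adjusted p = 0.0270), with no filter on low counts (0.88, adjusted p = 0.00377) and without BALF of mouse 4 (1.497, adjusted p = 0.00162). BALF was above BMDM by 2.61 ± 0.41 (adjusted p = 1.09e-04) and above PLF by 1.11 ± 0.37 (adjusted p = 0.0263). The difference from PLF was lost without BALF of mouse 4 (0.46, adjusted p = 0.273), without PLF of mouse 1 (0.87, adjusted p = 0.0928) and without PLF of mouse 2 (1.15, adjusted p = 0.0565). It was also lost under library totals (0.85, adjusted p = 0.0870) and in a fit of only these 2 groups (1.10, adjusted p = 0.0698). PLF was above BMDM by 1.497 ± 0.43 (adjusted p = 0.0124), a call lost without PLF of mouse 4 (adjusted p = 0.0643).

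Alox5ap, the membrane protein that presents arachidonic acid to Alox5 (ENSMUSG00000060063, chr5:149264767-149288153, plus strand), was the most abundant of the 10 by counts in every library. It had 1024, 539 and 676 CPM in mexAM and 1195, 1528 and 765 CPM in BALF. PLF held 765, 1013 and 1044 CPM and BMDM 845, 675 and 666 CPM. All 4 groups overlapped. It was lower in mexAM than in BALF by a log2 fold change of -0.84 ± 0.26 (adjusted p = 0.0210) and higher in BALF than in BMDM by 0.96 ± 0.26 (adjusted p = 0.00720). Neither call stood under scaling by library totals alone (adjusted p = 0.0792 and 0.0575), and both were lost without BALF of mouse 2, where Alox5ap was highest (adjusted p = 0.123 and 0.0528). The call between mexAM and BALF was also lost without BALF of mouse 1 or without mexAM of mouse 2 or 4 (adjusted p = 0.0638, 0.0855 and 0.0741). The other comparisons did not pass. mexAM differed from BMDM by 0.12 ± 0.26 (adjusted p = 0.742) and from PLF by -0.28 ± 0.26 (adjusted p = 0.359), and PLF from BMDM by 0.40 ± 0.26 (adjusted p = 0.237). BALF differed from PLF by 0.55 ± 0.26 (adjusted p = 0.0980), which passed without BALF of mouse 4 (0.76, adjusted p = 0.0261). mexAM against PLF passed without mexAM of mouse 1 (-0.60, adjusted p = 0.0487).

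Ltc4s, the synthase of the cysteinyl branch (ENSMUSG00000020377, chr11:50236461-50238616, minus strand), had 233, 248 and 242 CPM in mexAM, 130, 121 and 86.4 CPM in BALF, 110.3, 88.3 and 93.1 CPM in PLF, and 11.6, 12.3 and 1.84 CPM in BMDM. The mexAM libraries lay above every library of the other mouse groups, and BMDM lay below them all. Against BMDM, Ltc4s was higher in mexAM by 4.87 ± 0.36 on the log2 scale (adjusted p = 1.12e-08), in BALF by 3.98 ± 0.36 (adjusted p = 2.18e-07) and in PLF by 3.53 ± 0.36 (adjusted p = 1.12e-06). The BMDM libraries are shared by these 3 comparisons. mexAM also exceeded PLF by 1.34 ± 0.29 (adjusted p = 7.66e-04), while BALF and PLF were not separated (0.45 ± 0.29, adjusted p = 0.236). mexAM exceeded BALF by 0.89 ± 0.28 (adjusted p = 0.0255), a call lost without BALF of mouse 2 or 4 or without mexAM of mouse 2 (adjusted p = 0.0624, 0.0894 and 0.0575).

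Lta4h, the hydrolase of the leukotriene B branch (ENSMUSG00000015889, chr10:93453411-93484875, plus strand), varied most within mexAM, with 32.5, 86.1 and 135 CPM in mice 1, 2 and 4. BALF held 66.7, 72.0 and 77.2 CPM, PLF 22.1, 28.5 and 22.8 CPM and BMDM 51.7, 44.6 and 66.2 CPM. PLF lay below all libraries of the other 3 groups. The log2 fold change was 1.84 ± 0.37 for mexAM over PLF (adjusted p = 5.15e-04), 1.81 ± 0.38 for BALF over PLF (adjusted p = 0.00113) and -1.12 ± 0.37 for PLF over BMDM (adjusted p = 0.0283). The call between PLF and BMDM was lost without BMDM of mouse 4 or without any 1 PLF library (adjusted p = 0.0524 to 0.0968). mexAM and BALF differed by 0.03 ± 0.34 (adjusted p = 0.974), and this near-zero value took either sign when single libraries were left out. Against BMDM the test was not passed by mexAM (0.72 ± 0.34, adjusted p = 0.0965) or BALF (0.69 ± 0.35, adjusted p = 0.134). Without mexAM of mouse 1, the lowest, mexAM exceeded BMDM by 1.09 (adjusted p = 9.29e-04). With no filter on low counts both passed (0.73 for mexAM, adjusted p = 0.0106, and 0.66 for BALF, adjusted p = 0.0329), and BALF passed in a fit of only the 2 groups (0.68, adjusted p = 0.0132).

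The balance of the 2 leukotriene branches is given as a ratio of counts, with no test since it combines 2 of the genes. Ltc4s to Lta4h averaged 3.94 ± 2.84 in mexAM, 1.58 ± 0.421 in BALF and 4.06 ± 0.953 in PLF, against 0.176 ± 0.131 in BMDM (SD, n = 3 each). In BMDM it was 0.0278 to 0.277, below every library of the other groups, and the lowest value, in mouse 4, rests on 3 Ltc4s counts. In mexAM it was 7.16, 2.88 and 1.79 in mice 1, 2 and 4, so the mean rests on mouse 1, where Lta4h was lowest, and without it the mean was 2.33.

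For the cyclooxygenases, Ptges and Hpgd, 250 bases before the RefSeq start of each gene are shown, because Ptgs2 and Ptges had their highest levels in PLF, Ptgs1 was high in both PLF and BMDM, and Hpgd was high in BMDM. Sequences are from RefSeq on GRCm38.p6, 5′ to 3′ on the gene's own strand, and capitals mark motif matches. The windows are chr1:150099781-150100030 (plus) for Ptgs2, chr2:30903298-30903547 (minus) for Ptges, chr2:36230176-36230425 (plus) for Ptgs1 and chr8:56294302-56294551 (plus) for Hpgd. The Ptges window lies inside the annotated span of that gene, chr2:30889471-30929863. It precedes the RefSeq start and not the 5′ end of the span in which reads were counted.
Ptgs2: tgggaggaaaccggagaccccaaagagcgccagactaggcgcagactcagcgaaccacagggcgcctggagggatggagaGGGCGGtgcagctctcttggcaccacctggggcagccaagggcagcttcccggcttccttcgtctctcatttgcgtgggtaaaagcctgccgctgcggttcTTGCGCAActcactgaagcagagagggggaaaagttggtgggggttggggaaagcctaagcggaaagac
Ptges: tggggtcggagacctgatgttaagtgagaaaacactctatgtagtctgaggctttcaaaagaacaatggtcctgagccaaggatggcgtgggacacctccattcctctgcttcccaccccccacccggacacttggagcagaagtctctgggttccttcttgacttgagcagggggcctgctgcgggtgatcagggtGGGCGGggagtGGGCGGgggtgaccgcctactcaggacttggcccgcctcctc
Ptgs1: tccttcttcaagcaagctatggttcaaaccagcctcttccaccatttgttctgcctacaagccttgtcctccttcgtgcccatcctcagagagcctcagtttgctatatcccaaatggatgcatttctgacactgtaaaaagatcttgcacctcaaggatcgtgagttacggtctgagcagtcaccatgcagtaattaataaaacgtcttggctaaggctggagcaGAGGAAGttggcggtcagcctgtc
Hpgd: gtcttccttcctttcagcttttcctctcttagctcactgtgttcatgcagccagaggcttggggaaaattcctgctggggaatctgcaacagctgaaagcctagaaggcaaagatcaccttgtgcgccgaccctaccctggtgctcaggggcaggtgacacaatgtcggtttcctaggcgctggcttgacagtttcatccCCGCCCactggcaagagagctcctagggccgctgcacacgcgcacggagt

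The promoter windows were searched on both strands for 7 motifs. They were the CRE core, spelled TGACGT, the site of AP-1 factors, TGANTCA, the E-box, read as CACGTG, and a palindrome bound by C/EBP factors, TTGCGCAA. The others were the TATA box, spelled TATAAA, the GC box bound by Sp factors, GGGCGG, and the core of PU.1 sites, read as GAGGAAG. In the windows printed, no match overlapped another. Ptgs2 held TTGCGCAA 69 to 62 bases before the start, a match present in 54 of 32851 promoter windows of the same length (0.164%). Ptgs2 also held GGGCGG 170 to 165 bases before the start. Ptges held GGGCGG at 53 to 48 and 42 to 37 bases before the start, and Hpgd held it on the opposite strand at 50 to 45 bases, where its complement CCGCCC is printed. The GC box occurred in 32.7% of all windows. Ptgs1 held GAGGAAG at 24 to 18 bases before the start, a match found in 10.6% of windows. Of the 9 enzymes with a RefSeq window, none held TGACGT or CACGTG, which were in 6.47% and 6.02% of all windows. The windows end at the RefSeq start, so sites beyond it or further upstream were not searched. In the Hpgds and Ltc4s windows, 178 and 84 of the 250 bases lie in annotated exons of the same strand. The Tbxas1 window lies inside the annotated span of that gene. A match is a string of letters and does not show that a factor binds there.

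Ptgs1, the constitutive cyclooxygenase (ENSMUSG00000047250, chr2:36230426-36252272, plus strand), was low in lung-derived cells. It had 5.81, 6.33 and 13.6 CPM in mexAM and 2.40, 2.03 and 1.54 CPM in BALF, against 77.2, 70.5 and 97.4 CPM in PLF and 136, 134 and 62.5 CPM in BMDM. No library of mexAM or BALF reached the lowest library of PLF or BMDM. The log2 fold change was -3.56 ± 0.33 for mexAM over BMDM (adjusted p = 1.33e-07), -3.17 ± 0.34 for mexAM over PLF (adjusted p = 4.45e-07), -5.43 ± 0.45 for BALF over BMDM (adjusted p = 5.07e-08) and -5.04 ± 0.46 for BALF over PLF (adjusted p = 1.21e-07). PLF and BMDM were not separated (-0.39 ± 0.28, adjusted p = 0.292). mexAM lay above BALF in all 3 mice, by 1.87 ± 0.56 (adjusted p = 0.0189). That call was lost without any 1 BALF library or without mexAM of mouse 4 (adjusted p = 0.0508 to 0.0989).

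Ptgs2, the inducible cyclooxygenase (ENSMUSG00000032487, chr1:150100031-150108227, plus strand), was a PLF transcript in these libraries. mexAM of mice 1, 2 and 4 held 0.581, 0 and 0.824 CPM and BALF 1.20, 1.01 and 0.772 CPM. It had 75.9, 221 and 382 CPM in PLF, and 6.77, 4.11 and 3.06 CPM in BMDM. PLF did not overlap any other group, and within PLF mouse 1 was low and mouse 4 high. mexAM held 3 counts in all, against 984 in PLF, so that the PLF level was 475 times that of mexAM (95% exact Clopper-Pearson interval 162 to 2307, counting error only). The fitted log2 fold change was -8.61 ± 0.70 for mexAM over PLF (adjusted p = 1.09e-07), -7.44 ± 0.69 for BALF over PLF (adjusted p = 8.11e-07) and 5.56 ± 0.53 for PLF over BMDM (adjusted p = 1.70e-06). mexAM was also below BMDM, by -3.04 ± 1.06 (adjusted p = 0.0297), on 3 counts in mexAM against 25 in BMDM. Leaving out BMDM of mouse 1 or any 1 mexAM library ended that call (adjusted p = 0.0573 to 0.109). mexAM and BALF (-1.16 ± 1.54, adjusted p = 0.608) and BALF and BMDM (-1.88 ± 1.06, adjusted p = 0.187) were not separated, though with no filter on low counts BALF was below BMDM (-1.90, adjusted p = 0.0220).

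Ptges, the inducible prostaglandin E synthase of the membrane (ENSMUSG00000050737, chr2:30889471-30929863, minus strand), shared this pattern. mexAM held 1.74, 3.89 and 3.71 CPM and BALF 4.81, 5.07 and 15.4 CPM. It had 37.6, 180.1 and 162 CPM in PLF and 0.967, 1.37 and 2.45 CPM in BMDM. PLF lay above every other library, and PLF of mouse 1 was again the lowest of its group. The log2 fold change was -5.20 ± 0.58 for mexAM over PLF (adjusted p = 3.30e-06), -3.62 ± 0.54 for BALF over PLF (adjusted p = 9.20e-05) and 6.28 ± 0.67 for PLF over BMDM (adjusted p = 4.84e-06). BALF exceeded BMDM by 2.67 ± 0.88 (adjusted p = 0.0271), which was lost without BALF of mouse 4 or without BMDM of mouse 1 or 2 (adjusted p = 0.182, 0.0976 and 0.0694) and under scaling by library totals alone (adjusted p = 0.0521). mexAM and BALF differed by -1.59 ± 0.75 (adjusted p = 0.125). That difference passed with mouse as a block (-1.72, adjusted p = 0.00960), with DESeq2 (-1.64, adjusted p = 0.0418) and with no filter on low counts (-1.56, adjusted p = 0.00760). mexAM and BMDM differed by 1.08 ± 0.98 (adjusted p = 0.396).

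Other transcripts also differed among the PLF libraries. A list of 14 immediate early genes summed to 2142 to 2302 CPM in mexAM, 2431 to 3707 CPM in BALF, then 2727, 5768 and 7816 CPM in PLF of mice 1, 2 and 4, and 1427 to 1644 CPM in BMDM. A list of 12 inflammatory genes, such as Il1b and Tnf, summed to 679 to 900.2 CPM in mexAM, 992 to 2869 CPM in BALF, then 4914, 10508 and 12342 CPM in PLF of mice 1, 2 and 4, and 1452 to 1993 CPM in BMDM. Within PLF, both sums had the order of Ptgs2 and not that of Ptges. The peritoneal macrophage list summed to 38.4 to 212 CPM in mexAM, 82.2 to 133 CPM in BALF, then 9196, 14833 and 12861 CPM in PLF of mice 1, 2 and 4, the order of Ptges there, and 53.5 to 60.7 CPM in BMDM. The mast cell list was at 4.07 to 14.8 CPM in mexAM, 2.03 to 5.402 CPM in BALF, 2072 to 2274 CPM in PLF and 7.54 to 22.7 CPM in BMDM, and PLF of mouse 1 did not stand apart in it. Of its defining markers, Cpa3 averaged 0.162 CPM in mexAM, 0.515 CPM in BALF, 755 CPM in PLF and 2.07 CPM in BMDM, and Mcpt4 was at 0 in mexAM and BALF. The B cell list averaged 3.32 CPM in mexAM and 6.16 CPM in BALF, against 3379 CPM in PLF and 119 CPM in BMDM. The part of these cells, or of cell handling, in the levels of Ptgs2 and Ptges was not tested. Without PLF of mouse 1, low in inflammatory transcripts (a choice made after seeing the data), mexAM against PLF called 8 enzymes, as before. Every PLF library lay above every mexAM library for Ptgs2 and Ptges, so this count does not bear on cells or handling. The share of all genes called in that fit is not given.

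**Figure D2:**
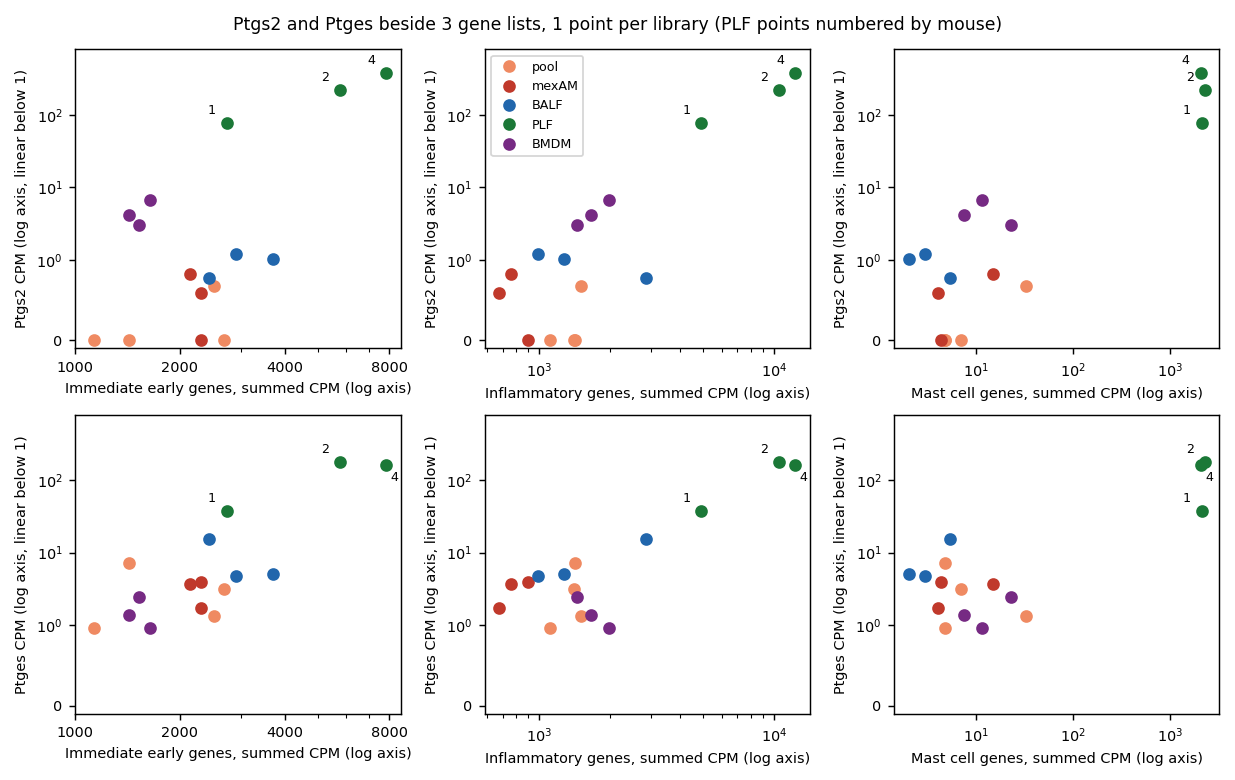
CPM of Ptgs2 (top) and Ptges (bottom), 1 point per library, against the summed CPM of immediate early, inflammatory and mast cell genes, on log axes that are linear below 1 for the enzymes. In PLF, mice 1, 2 and 4 follow the order of the immediate early and inflammatory sums for Ptgs2, and lie at nearly 1 mast cell sum.

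Hpgds, the cytosolic synthase of prostaglandin D, known from mast cells and macrophages (ENSMUSG00000029919, chr6:65117293-65144908, minus strand), had 59.8, 51.6 and 51.9 CPM in mexAM, 48.7, 28.4 and 21.6 CPM in BALF, 14.3, 15.2 and 14.8 CPM in PLF and 254, 276 and 232 CPM in BMDM. No group overlapped another, and PLF was the lowest. PLF was also the group with mast cell transcripts, and the part of mast cells in the Hpgds level was not tested. The log2 fold change was -2.14 ± 0.23 for mexAM over BMDM (adjusted p = 7.48e-07), 1.92 ± 0.27 for mexAM over PLF (adjusted p = 1.15e-05), -2.63 ± 0.25 for BALF over BMDM (adjusted p = 2.13e-07), 1.43 ± 0.28 for BALF over PLF (adjusted p = 5.74e-04) and -4.06 ± 0.27 for PLF over BMDM (adjusted p = 6.11e-09). mexAM and BALF were not separated by the test (0.49 ± 0.25, adjusted p = 0.147). mexAM was higher under scaling by library totals alone (0.70, adjusted p = 0.0366) and without BALF of mouse 1 (0.93, adjusted p = 0.0109).

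Tbxas1, thromboxane synthase (ENSMUSG00000029925, chr6:38875404-39084585, plus strand), had 139, 139.7 and 121 CPM in mexAM, 108, 102 and 95.7 CPM in BALF, 61.0, 70.5 and 61.0 CPM in PLF and 143, 193 and 153 CPM in BMDM. PLF lay below all other mouse libraries. It was higher in mexAM than in PLF by 1.10 ± 0.19 (adjusted p = 8.73e-05), higher in BALF than in PLF by 0.92 ± 0.19 (adjusted p = 8.58e-04), and lower in PLF than in BMDM by -1.31 ± 0.19 (adjusted p = 3.34e-05). The comparisons of mexAM with BALF (0.18 ± 0.18) and with BMDM (-0.21 ± 0.18) did not pass (adjusted p = 0.493 and 0.371). Nor did BALF with BMDM (-0.39 ± 0.18, adjusted p = 0.111), which passed under scaling by library totals alone (-0.67, adjusted p = 0.00658). Tbxas1 overlaps Hipk2 on the opposite strand, which reached 608 CPM. The sources used here do not say whether counting used the strand, so whether Hipk2 reads entered the Tbxas1 count cannot be told. Reads set aside as ambiguous made up 0.450% to 0.625% of those counted, over all genes. Platelets are rich in thromboxane synthase. The 8 platelet genes listed summed on average to 2.01 CPM in mexAM, 9.51 CPM in BALF, 1885 CPM in PLF and 901 CPM in BMDM. Pf4 made up most of the sum in PLF and BMDM, with 1871 and 888 CPM. The part of platelets in the Tbxas1 level was not tested.

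Hpgd, the dehydrogenase that inactivates prostaglandins (ENSMUSG00000031613, chr8:56294585-56321043, plus strand), was a BMDM transcript here. mexAM of mice 1, 2 and 4 held 0, 0 and 1.24 CPM, BALF 7.21, 1.01 and 1.54 CPM, and PLF 0.649, 2.68 and 1.85 CPM. It had 111, 94.6 and 33.1 CPM in BMDM. BMDM lay above every library of the other groups. mexAM held 3 counts, against 422 in BMDM, so that the BMDM level was 169 times that of mexAM (95% exact interval 57.5 to 824). The fitted log2 fold change was -7.08 ± 0.74 for mexAM over BMDM (adjusted p = 1.53e-06), -4.11 ± 0.59 for BALF over BMDM (adjusted p = 5.62e-05) and -5.49 ± 0.66 for PLF over BMDM (adjusted p = 1.27e-05). mexAM and BALF differed by -2.97 ± 1.13 (adjusted p = 0.0600), and with mouse as a block by -2.80 (adjusted p = 0.0473). That difference also passed with DESeq2 (-3.13, adjusted p = 0.0147), with no filter on low counts (-2.95, adjusted p = 6.37e-04) and without mexAM of mouse 4, the only mexAM library with counts (-5.75, adjusted p = 0.0440). PLF was not separated from mexAM (-1.59 ± 1.33 for mexAM over PLF, adjusted p = 0.324) or from BALF (1.38 ± 0.99 for BALF over PLF, adjusted p = 0.288). The 9 neutrophil genes summed to 356 to 794 CPM in mexAM, 121 to 148 CPM in BALF and 54.5 to 106 CPM in PLF, and to 3215, 2182 and 5785 CPM in BMDM of mice 1, 2 and 4, highest where Hpgd was lowest. Their part in the Hpgd level was not tested.

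The prostanoid ratios set these patterns together. Ptgs2 to Ptgs1 was 2.68 ± 1.52 in PLF and 0.0432 ± 0.0108 in BMDM (SD, n = 3 each); in mexAM and BALF it rests on 0 to 2 Ptgs2 counts per library. Ptges to Hpgds was 0.0587 ± 0.0257 in mexAM, 0.331 ± 0.335 in BALF, 8.49 ± 5.09 in PLF and 0.00645 ± 0.00363 in BMDM. It rests on 3 to 9 Ptges counts per library in mexAM and 2 to 4 in BMDM. In BALF of mice 1, 2 and 4 it was 0.0988, 0.179 and 0.714, and without mouse 4 the BALF mean was 0.139. Ptges to Hpgd was 71.0 ± 15.2 in PLF and 0.0324 ± 0.0362 in BMDM. PLF thus held more counts of Ptges than of either Hpgds or Hpgd in all 3 libraries, and BMDM held fewer in all 3.

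Counted by comparison, the enzymes called at an adjusted p under 0.05 were set against the share of all tested genes called. In mexAM against PLF, 8 of 10 passed, 5 higher and 3 lower, where 57.9% of all genes were called, 28.4% higher and 29.6% lower. In PLF against BMDM, 8 passed, 4 higher and 4 lower, with 36.5% of all genes called. BALF against PLF gave 7, with 4 higher and 3 lower, against 40.3% of all genes, 19.5% higher and 20.8% lower. BALF against BMDM gave 7, with 4 higher and 3 lower, against 37.4% of all genes, 18.2% higher and 19.3% lower. mexAM against BMDM gave 6, with 2 higher and 4 lower, against 44.6% of all genes, 21.5% higher and 23.0% lower. In mexAM against BALF 3 passed, Ltc4s and Ptgs1 higher and Alox5ap lower, where 30.0% of all genes were called, 15.2% higher and 14.8% lower, so that the share of enzymes called was near the background. With mouse as a block, 6 passed, 3 in each direction. Leaving out BALF of mouse 2 gave 0 called and leaving out mexAM of mouse 2 gave 1. The share of all genes called in those fits is not given, so these counts have no background beside them. The median log2 fold change of the 10 enzymes was 0.41 in mexAM against PLF, 0.01 in PLF against BMDM, 0.74 in BALF against PLF, 0.15 in BALF against BMDM, -0.04 in mexAM against BMDM and 0.10 in mexAM against BALF, and that of all tested genes lay between -0.03 and 0.01 in these comparisons.

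**Figure D3:**
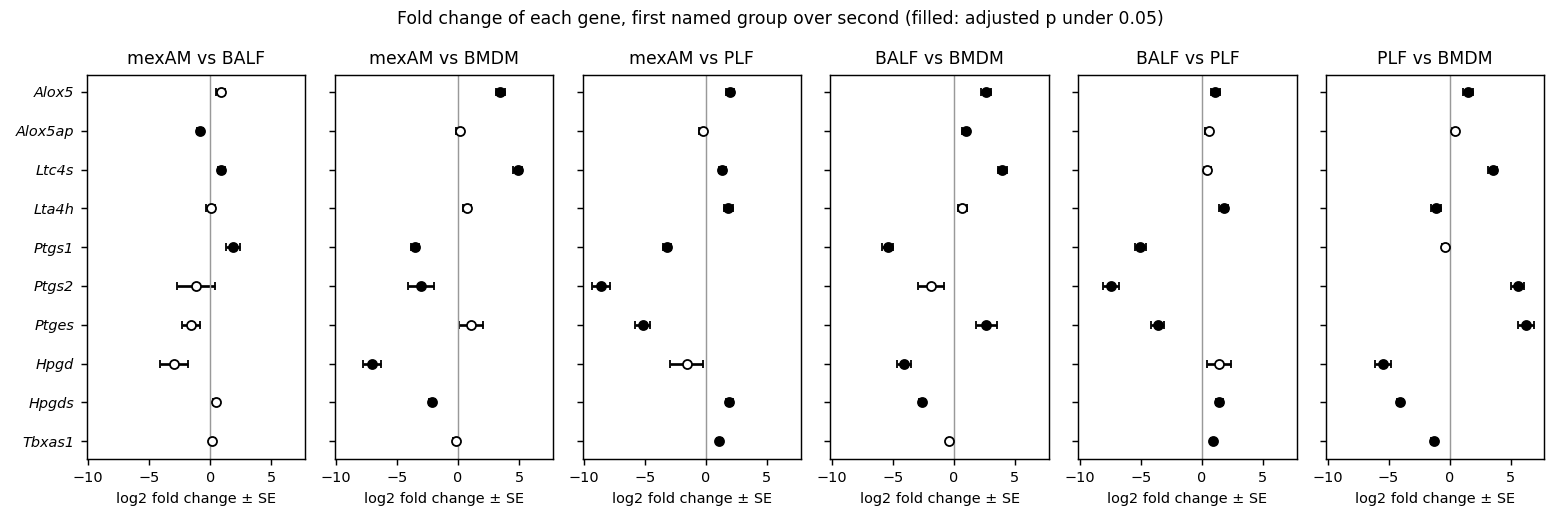
Log2 fold change ± SE of each enzyme in the 6 comparisons, the first named group over the second, with filled points where the adjusted p is under 0.05. The largest change drawn is -8.61, for Ptgs2 in mexAM against PLF, and mexAM against BALF has the fewest filled points, 3.

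The pool cultures addressed whether the mexAM pattern was also found in other cultures of alveolar macrophages. Summed over their passages, pools 1 and 2 had 100.1 and 60.9 CPM of Alox5, 127 and 166 CPM of Ltc4s, and 25.7 and 14.8 CPM of Ptgs1. Tbxas1 had 79.1 and 77.3 CPM, and Ptgs2 held 1 count in the 4 libraries. Of the 10 enzymes, 0 passed between pool cultures and mexAM in the edgeR fit of 14 columns, where 0.698% of 10602 genes were called, 0.519% higher and 0.179% lower. At an unadjusted p under 0.05 there were 3 of the 10, and 1494 of all genes (14.1%): Tbxas1 at -0.76 ± 0.19 (adjusted p = 0.0688), Ptgs1 at 1.19 ± 0.39 (adjusted p = 0.157) and Ltc4s at -0.71 ± 0.30 (adjusted p = 0.295). DESeq2 called Tbxas1 (-0.79, adjusted p = 0.0114), among 177 genes in all. Tbxas1 also passed with the later passages only (-0.96, adjusted p = 0.0248), and Ptgs1 with no filter on low counts (1.18, adjusted p = 0.0126). The enzymes that passed were 1 higher and 1 lower in pool cultures against BALF, where 26.0% of all genes were called (13.6% higher and 12.4% lower). Against BMDM, 2 were higher and 5 lower, with 43.2% of all genes called (21.2% higher and 21.9% lower). Against PLF, 3 were higher and 3 lower, with 53.4% of all genes called (26.4% higher and 27.0% lower). Against BMDM, Ltc4s was higher in pool cultures by 4.16 ± 0.36 (adjusted p = 4.17e-08) and Alox5 by 3.23 ± 0.43 (adjusted p = 1.11e-05), and Hpgd was lower by -5.79 ± 0.69 (adjusted p = 4.33e-06). Against PLF, Ptgs2 was lower by -9.88 ± 0.90 (adjusted p = 3.70e-07) and Ptges by -5.37 ± 0.69 (adjusted p = 1.30e-05). Against BALF, Ptgs1 was higher by 3.06 ± 0.55 (adjusted p = 4.81e-04) and Tbxas1 lower by -0.59 ± 0.20 (adjusted p = 0.0344). The Ptgs1 call rests on the later passages: with the earlier passage of each pool only, the value was 0.71 (adjusted p = 0.577). The Tbxas1 call was lost without either pool (adjusted p = 0.156 and 0.189), without BALF of mouse 1 or 2 (adjusted p = 0.0910 and 0.0531) under scaling by library totals alone (adjusted p = 0.146), with no filter on low counts (adjusted p = 0.124) and with the earlier passages only (adjusted p = 0.440). The pool comparisons share their pool libraries.

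By passage, Ptgs1 moved most. Pool 1 had 3.85 CPM at passage 8 and 40.9 CPM at passage 13, and pool 2 had 3.62 CPM at passage 5 and 18.03 CPM at passage 10, so both pools were higher at the later passage. The log2 fold change of later over earlier was 2.82 ± 0.62 with an unadjusted p of 2.01e-04 and an adjusted p of 0.195, in a design of 2 pools where edgeR called 1 gene in all, 0.00950% of 10527. DESeq2 called Ptgs1 (adjusted p = 0.0160), as did edgeR without a filter on low counts (adjusted p = 3.44e-05). Tbxas1 was lower at the later passage in both pools, with 92.5 CPM at passage 8 and 69.8 CPM at passage 13 in pool 1 and 97.9 CPM at passage 5 and 71.4 CPM at passage 10 in pool 2 (-0.50 ± 0.23, adjusted p = 0.529). Of the 10 enzymes 0 were called and 2, Ptgs1 and Tbxas1, had an unadjusted p under 0.05; over all genes 947 had one and DESeq2 called 33.

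**Figure D4:**
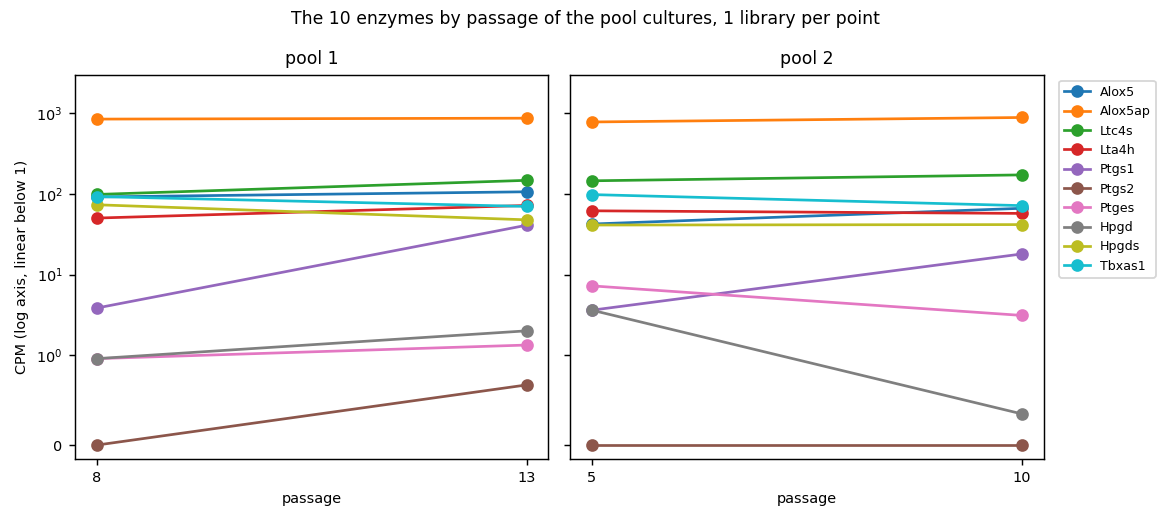
CPM of each enzyme (log axis, linear below 1) at the earlier and the later passage of pool 1 and pool 2, 1 library per point. Ptgs1 is at 3.62 to 3.85 CPM at the earlier passages and 18.03 to 40.9 CPM at the later ones, and the low lines of Ptgs2, Ptges and Hpgd rest on few counts.

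Other genes of the pathway were read from a list of 74 that supply arachidonic acid, convert or carry its products or receive their signal, of which 45 could be tested in the 12-library fit. In mexAM against BALF 27 passed (60%, against 30.0% of all genes), 13 higher and 14 lower. In mexAM against BMDM there were 30 (66.7%, against 44.6%), 17 higher and 13 lower, and in mexAM against PLF 37 (82.2%, against 57.9%), 20 higher and 17 lower. BALF against BMDM gave 24 (53.3%, against 37.4%), 16 higher and 8 lower, and BALF against PLF 25 (55.6%, against 40.3%), 14 higher and 11 lower. PLF against BMDM gave 22 (48.9%, against 36.5%), 10 higher and 12 lower. No test was made of these shares. Their median log2 fold change ran from -0.03 to 0.54 over these 6 comparisons, also with genes that had 0 counts in a group set at their bound against 3 counts.

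Genes of arachidonic acid supply differed between groups. Pla2g4a, the cytosolic phospholipase that releases arachidonic acid, averaged 77.0 ± 7.53 CPM in BALF and 96.0 ± 23.7 CPM in PLF, against 12.1 ± 3.70 CPM in BMDM (SD, n = 3 each). Its log2 fold change over BMDM was 2.94 ± 0.32 in BALF (adjusted p = 1.39e-06) and 2.996 ± 0.32 in PLF (adjusted p = 1.35e-06). Of the 6 phospholipases tested, 6 passed in mexAM against BALF, 3 in each direction, 5 in mexAM against BMDM and 5 against PLF, 4 in BALF against BMDM and 3 against PLF, and 3 in PLF against BMDM, beside the shares of all genes just given. Pla2g7, which cleaves platelet activating factor, was at 1.10 ± 0.583 CPM in mexAM, 35.1 ± 13.1 CPM in BALF, 375 ± 55.1 CPM in PLF and 393 ± 22.8 CPM in BMDM. Pla2g16, another phospholipase, had 189 ± 46.1 CPM in mexAM against 22.4 ± 7.52 CPM in BMDM. Acsl3, which activates fatty acids for reuse in lipids, reached 215 ± 4.41 CPM in mexAM, against 9.18 ± 2.76 CPM in BALF (4.28 ± 0.25 on the log2 scale, adjusted p = 4.78e-09).

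Among lipoxygenases and enzymes that convert leukotrienes or other epoxides, Alox15, the lipoxygenase of resident peritoneal macrophages, had 0 counts in mexAM and averaged 819 ± 159 CPM in PLF, so that mexAM was at least 1680-fold lower, taking 3 counts over the group as the floor. Alox15 is also 1 of the 10 genes of the peritoneal list. Ephx2, the soluble epoxide hydrolase, stood at 128 ± 15.0 CPM in mexAM, with 798 counts there against 3 in BALF, a ratio of 169 (95% exact interval 57.7 to 822). Ephx1, the microsomal epoxide hydrolase, ran the other way, with 2 counts in mexAM against 47 in BALF, a BALF level 36.9 times that of mexAM (95% exact interval 9.68 to 314). Cyp4f18, which in mouse hydroxylates leukotriene B, had 3.86 ± 3.34 CPM in mexAM against 68.0 ± 11.4 CPM in BALF (-4.33 ± 0.44, adjusted p = 2.25e-06). Mgst2, a microsomal glutathione transferase that can also make cysteinyl leukotriene, had 41.4 ± 18.5 CPM in mexAM against 3.86 ± 2.17 CPM in BMDM (3.43 ± 0.44, adjusted p = 5.56e-06). Like Ltc4s, it was low in BMDM and high in mexAM.

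For prostacyclin, Ptgis, its synthase, had 0 counts in mexAM and averaged 95.8 ± 35.6 CPM in PLF (at least 206-fold lower in mexAM), and its receptor Ptgir averaged 69.3 ± 13.0 CPM in BALF and 61.8 ± 7.47 CPM in PLF, against 11.4 ± 4.22 CPM in BMDM. Among carriers, Abcc1, which exports cysteinyl leukotrienes, was at 22.5 ± 5.27 CPM in mexAM against 190 ± 36.1 CPM in BALF (-3.27 ± 0.23, adjusted p = 3.72e-08), and the uptake carrier Slco2b1 at 354 ± 44.8 CPM in mexAM against 32.9 ± 9.68 CPM in BALF (3.20 ± 0.28, adjusted p = 2.50e-07). Cysltr1, a receptor for cysteinyl leukotrienes, averaged 1.62 ± 0.993 CPM in mexAM and 116 ± 15.1 CPM in BMDM (-6.02 ± 0.45, adjusted p = 7.39e-09). BMDM, with the lowest Ltc4s, had the highest mean Cysltr1 of the 4 mouse groups, and BALF held 2 counts of it.

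**Figure D5:**
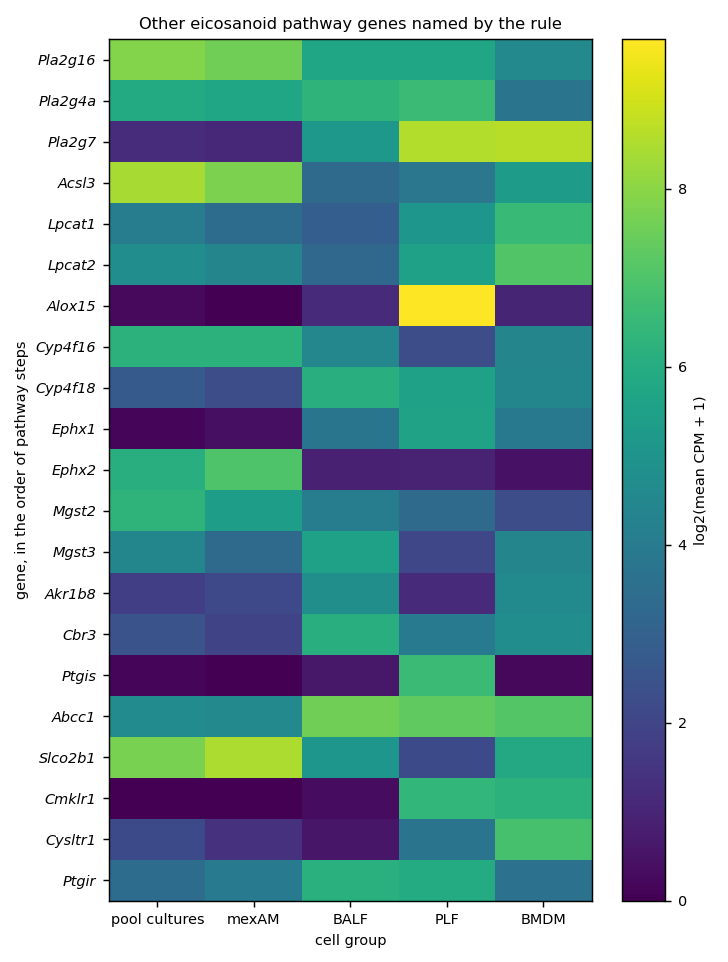
Mean level of the other pathway genes named by the rule, as log2(mean CPM + 1), for pool cultures, mexAM, BALF, PLF and BMDM, in the order of pathway steps. Alox15 and Ptgis are bright in PLF alone, and Ephx2, Acsl3 and Slco2b1 are brighter in the cultured alveolar macrophages than in BALF.

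To place the enzymes among other transcripts, the protein-coding genes with the closest group pattern were taken for the 7 enzymes whose group means of log2 CPM spanned at least 2. Closeness was the root mean square difference of centred means over 5 groups among 7347 genes, a description that shares all libraries. Alox5 was nearest to Hint3 (0.089), Rpia (0.156) and Golm1 (0.178), and Ltc4s to Plcb1 (0.353), Marco (0.356) and Fabp4 (0.373). With library sizes scaled by TMM as in the fits, Marco had 693 CPM in mexAM, 385 CPM in BALF, 139 CPM in PLF and 17.9 CPM in BMDM. Marco is a scavenger receptor of alveolar macrophages. Ptgs2 was nearest to Gm8369 (0.235), Il1rl1 (0.255) and Cd79b (0.265), of which Il1rl1 is known from mast cells and Cd79b from B cells, and Ptges to Ramp3 (0.357), Adm (0.393) and Bcam (0.426). Hpgd was nearest to Ltf (0.174), a neutrophil granule gene, then Clec12a (0.337) and Sparc (0.385). Within BMDM, the neutrophil list, which holds Ltf, was highest in mouse 4, where Hpgd was lowest. Hpgds was nearest to Pdxk (0.135), Lst1 (0.303) and P2ry6 (0.314), and Ptgs1 to Vegfa (0.308), Fam20c (0.369) and Tnfrsf13b (0.421).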

How the data were processed

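Total RNA of 16 libraries was sequenced as QuantSeq 3' end reads with unique molecular identifiers, per the labels' protocols. The authors' deposited files hold raw counts per Ensembl gene, 1 file per library, on GRCm38 (mm10) per the submitters' processing notes. The aligner, the counting program, its strand setting and any collapsing by molecular identifier were not given in the sources used here. Counting error alone is covered by the intervals and floors. The 5 lines that name no gene were left out of library sizes. Reads outside genes made up 10.6% to 29.9% of those counted, and this share differed by group. It was 10.6% to 12.4% in pool cultures, 13.3% to 15.5% in mexAM and 19.9% to 21.4% in BALF. In BMDM it was 20.8% to 28.3% and in PLF 27.6% to 29.9%. GENCODE release M21 named 47224 of 47643 identifiers, and the other 419 stayed in the fits.

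CPM are counts divided by the counts in genes. edgeR 4.0.16 in R 4.3.3 kept genes by filterByExpr, set library scales by TMM and gave robust quasi-likelihood tests; each comparison's p-values had a Benjamini-Hochberg adjustment across its genes, and 0.05 was the threshold. The fits held 12 libraries (10011 genes, 8 residual degrees of freedom), 14 columns with the 2 passages of each pool summed (10602 genes, 9), and 16 libraries for passage (10527 genes, 10). All 10 enzymes passed each filter. The standard error is the log2 fold change divided by the root of F. Log2 CPM used a prior count of 2. DESeq2 1.42.0, other scalings, no filter, mouse or pool as a block and each library left out were tried as alternatives. Mouse numbers pair the libraries by animal, per the labels; same-mouse deviations from group means correlated at -0.118 to 0.220 (median -0.0207, 18 pairs, 2 over 0.1).

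The enzymes, lists and tests were chosen with earlier results of these data known. The rule names all 10 enzymes in every comparison; for the pool cultures and passages the text gives counts over the 10 and values for a selection. Other pathway genes named passed the threshold, had a mean of 10 CPM or more on the higher side, and were up to the 8 largest changes per comparison, and the text gives a selection. Like-pattern genes had at least 20 CPM in 1 group, with library sizes scaled by TMM. Promoter windows were matched for 9 of 10 enzymes, all but Alox5ap. Besides Tbxas1, the largest overlap was Gm26542 with Ltc4s, at up to 6.01 CPM.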

Additional observations from a re-analysis of the deposited data

How the results depend on the processing

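Single enzymes changed sides mainly where counts were low or the change was small; the causes were not tested. Enzymes called in mexAM against BALF numbered 3, and 6 without a filter on low counts, 5 with DESeq2 and 6 with mouse as a replicate block. Over all genes, DESeq2 called 2887 in this comparison, against 3007 in the edgeR fit. In this comparison no share of all genes is given for the fits without a filter, with the block or with 1 library left out. Leaving out 1 library gave 0 to 3. The block changed no other call in the 6 comparisons and turned Lta4h in mexAM against BALF to -0.0804. A fit of only those 2 groups gave it -0.00185. For pool cultures against mexAM, 0 became 1 without a filter, with DESeq2 and with the later passages only. Over all genes, DESeq2 called 177 there, against 74 in the edgeR fit. For pool cultures against BALF, 2 became 1 under library totals and 0 with the earlier passages only. With 1 BALF library left out it was 1 to 4, with 1 without BALF of mouse 2 and 4 without BALF of mouse 4. Over all genes, library totals called 2966 there, against 2757 in the edgeR fit. For later against earlier passage, 0 became 1 without a filter and with DESeq2. Over all genes those fits called 80 and 33, against 1 in the edgeR fit. For the other pool fits named here, no count over all genes is given. With the earlier passages only, pool cultures against mexAM turned to -1.15 for Ptgs1, 0.30 for Ptges and 0.14 for Hpgds, pool cultures against BALF to -0.0417 for Ltc4s, and pool cultures against PLF to 0.42 for Hpgd.

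Leaving out 1 library gave both signs in these uncalled changes. They were -0.44 to 0.40 for Lta4h in mexAM against BALF, -0.20 to 0.30 for Alox5ap in mexAM against BMDM and -0.0849 to 1.71 for Hpgd in BALF against PLF. For pool cultures against mexAM they were -0.63 to 0.0838 for Alox5, -1.62e-05 to 0.50 for Alox5ap, -1.37 to 0.35 for Ptges and -0.38 to 0.11 for Hpgds. Against BALF it was -0.0167 to 0.37 for Ltc4s, against BMDM -0.28 to 1.44 for Ptges, and against PLF -0.68 to 0.0434 for Hpgd. For later against earlier passage they were -0.0231 to 0.10 for Alox5ap, -0.19 to 0.46 for Lta4h, -1.28 to 0.39 for Ptges and -3.21 to 0.95 for Hpgd. With a single pool left, that pool is assumed to vary like the other groups.

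Library totals alone moved the median of all genes to 0.22 in mexAM against BALF, 0.20 in pool cultures against BALF, -0.32 in BALF against BMDM and -0.27 in BALF against PLF. The share of calls that were higher became 67.4%, 67.7%, 30.5% and 33.1%, against 50.6%, 52.4%, 48.5% and 48.4%; no enzyme reversed. Fits of only 2 groups gave no value for 10 enzyme changes, as those genes had too few counts for the filter. Counts of other pathway genes stayed within 1.5 times under all alternatives run. Ratios of summed counts lay within 1 SD of the mean ratio. With 3 libraries, leaving 1 out cannot move the mean by 1 SD, so that measure says nothing of stability there. With 1 library left out, the mean moved by over 1.5 times for Ltc4s to Lta4h in mexAM (2.33 to 5.02), Ptges to Hpgds in BALF (0.139 to 0.446) and Ptgs2 to Ptgs1 in mexAM (0.0303 to 0.0803). Ptgs2 and Hpgd in mexAM rest on 3 counts each over the group, so depth limits what can be told of them.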
